A study of Mus musculus with 2 samples.

Results

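Natural killer (NK) cells, many of which carried Kit transcript, were examined in single-cell RNA-seq of mouse bone marrow. A barcode was called a cell when it held at least 1000 UMIs (unique molecular identifiers, each standing for 1 captured transcript), at least 500 genes and at most 10% mitochondrial UMIs. A called cell was taken as NK when it had at least 1 UMI of Il2rb, at least 1 of Ncr1 and Klrb1c together, and none of Cd3e, Cd3d and Cd3g. This chose 551 of 23283 called cells, 248 of 11932 in the FMT_young library and 303 of 11351 in the FMT_aged library. The cells were chosen by the measured UMIs of these genes, and the Kit classes by Kit, so the values of these genes are given as a description.

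Both libraries came from aged C57BL/6J mice. The FMT_young library holds marrow of aged recipients of a young gut microbiota by faecal microbiota transplant (FMT), and the FMT_aged library marrow of aged recipients of an aged gut microbiota transplant. Whole marrow cells, Lin- cells and Lin- cKit+ cells were sorted and mixed, with the Lin- cKit+ fraction the most abundant, and run with the 10x Chromium v3 3′ chemistry. The labels give neither the ages nor the number of animals behind a library, and there is 1 library per group, so no difference between the groups could be tested. Lin- cells are those without the surface markers of mature blood lineages; the antibodies used are not given in the sources used here, and the sort by cKit bears on every share of cells below.

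NK cells are innate lymphocytes that kill infected and transformed cells without a rearranged antigen receptor. They mature in the bone marrow under interleukin-15, which signals through IL2RB, and they sense target cells through activating receptors such as NCR1 (NKp46) and through lectin-like receptors encoded together on chromosome 6, among them KLRB1C (NK1.1), KLRD1 (CD94), KLRK1 (NKG2D) and the Ly49 family (Klra genes). KIT is the receptor tyrosine kinase for stem cell factor, best known from haematopoietic stem cells, progenitors and mast cells, and it has been described on part of the immature NK cells of the marrow. The Kit gene lies at chr5:75574916-75656722 on the plus strand of mm10.

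The libraries held 214982156 UMIs (FMT_young) and 207642851 UMIs (FMT_aged), and the median called cell 12438.5 UMIs and 13000 UMIs. NK cells were shallower, with medians of 3930 UMIs and 1514 genes in FMT_young and 3623 UMIs and 1504 genes in FMT_aged. The libraries shared 34 barcodes among called cells; no barcode was an NK cell in both, and 3 NK barcodes were called cells of the other library. A doublet score (Scrublet) put 36 FMT_young NK cells (14.5%) and 38 FMT_aged NK cells (12.5%) among the cells most like simulated pairs, and these were kept unless stated.

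The label was checked against marker genes that the rule did not use. Xcl1, which encodes the chemokine lymphotactin, had a UMI in 87.5% of FMT_young and 80.5% of FMT_aged NK cells, Klrd1 in 86.7% and 88.8%, and the Ly49H gene Klra8 in 49.6% and 45.2%. The Fc receptor gamma chain Fcer1g, an adaptor of NCR1, was detected in 99.2% and 99.7% of NK cells and the adaptor Tyrobp (DAP12) in 96.8% and 95.4%. Eomes, a transcription factor gene of NK cells, was detected in 53.2% and 45.2%. Trac, the constant gene of the T cell receptor alpha chain, was detected in 2.42% and 3.96%, and Cd5 in 0.403% and 0.33%. Trbc1 and Trbc2, the beta chain constant genes, were detected in 70.2% and 41.9% of FMT_young NK cells and in 70.6% and 46.9% of FMT_aged NK cells. Cd8a and Cd4 had no UMI in any of the 248 and 303 cells. After each cell was thinned at random to 2000 UMIs to equalise depth, the 3 NK markers outside the gates (Xcl1, Klrd1, Klra8) summed to 2427 CPM (UMIs of a gene scaled to a fixed total) in FMT_young NK cells and 984 CPM in FMT_young T cells, and to 2323 CPM and 964 CPM in the same classes of FMT_aged. T cells here have at least 2 Cd3 UMIs and none of Ncr1 or Cd79a. This class can hold NK-like cells, and T cells with Cd3e below are those of it with a Cd3e UMI and no Klrb1c UMI. In thinned NK cells, 5 markers of group 1 innate lymphoid cells (ILC1: Itga1, Cxcr6, Tmem176a, Tmem176b and Tnfsf10) summed to 290 CPM in FMT_young and 366 CPM in FMT_aged. The rule has no condition on these genes, so it does not separate ILC1 from NK cells.

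Markers of other marrow cells were also present. The summed level of 6 granulocyte-monocyte progenitor markers in thinned NK cells was 3751 CPM (FMT_young) and 3211 CPM (FMT_aged), against 18540.5 CPM and 18794 CPM in the free RNA of each library, that is, in barcodes under 100 UMIs. For 6 neutrophil markers it was 6120 CPM and 3594 CPM, against 19890 CPM and 14624 CPM in free RNA. None of these 12 genes was at 0 in NK cells of either library. At least 1 UMI of Mpo, Elane, Cd34, Cpa3, Cd79a or Csf1r was found in 70.6% of FMT_young NK cells and 65.3% of FMT_aged NK cells. The part of free RNA and doublets in these levels was not tested.

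Cells at the edge of the rule differed in marker content. NK cells with a single Il2rb UMI (47 in FMT_young, 48 in FMT_aged) had Xcl1 in 70.2% and 75%, whereas the cells just outside for want of Il2rb (133 and 170) had it in 17.3% and 12.4%. Cells just outside with exactly 1 Cd3 UMI (97 and 113) had Xcl1 in 89.7% and 81.4% and Klrd1 in 89.7% and 88.5%, close to the members themselves.

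The Cd3 condition removed most cells that otherwise met the rule. Of cells with Il2rb and with Ncr1 or Klrb1c, 248 of 796 in FMT_young (31.2%) and 303 of 1083 in FMT_aged (28%) had no Cd3 UMI. A larger class, 524 cells (65.8%) and 700 cells (64.6%), had Cd3d or Cd3g but no Cd3e; these are called NK-like below. NK-like cells had Trac in 4.77% (FMT_young) and 5.86% (FMT_aged), Cd5 in 0.382% and 0.571%, and Fcer1g in 98.5% and 98.3%. T cells with Cd3e had Trac in 72.5% and 76.1% and Cd5 in 31.0% and 32.1%. The Trac, Cd5 and Fcer1g shares of NK-like cells lay nearer to those of NK cells than to those of T cells. Other genes set them apart from NK cells. Trdc, the delta chain constant gene, was in 19.5% and 23.3% of NK-like cells. It was in 9.68% and 12.2% of NK cells and in 1.74% and 2.06% of T cells with Cd3e. Eomes was in 65.3% and 60.4% of NK-like and in 53.2% and 45.2% of NK cells. The identity of the NK-like cells was not tested.

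**Figure D1:**
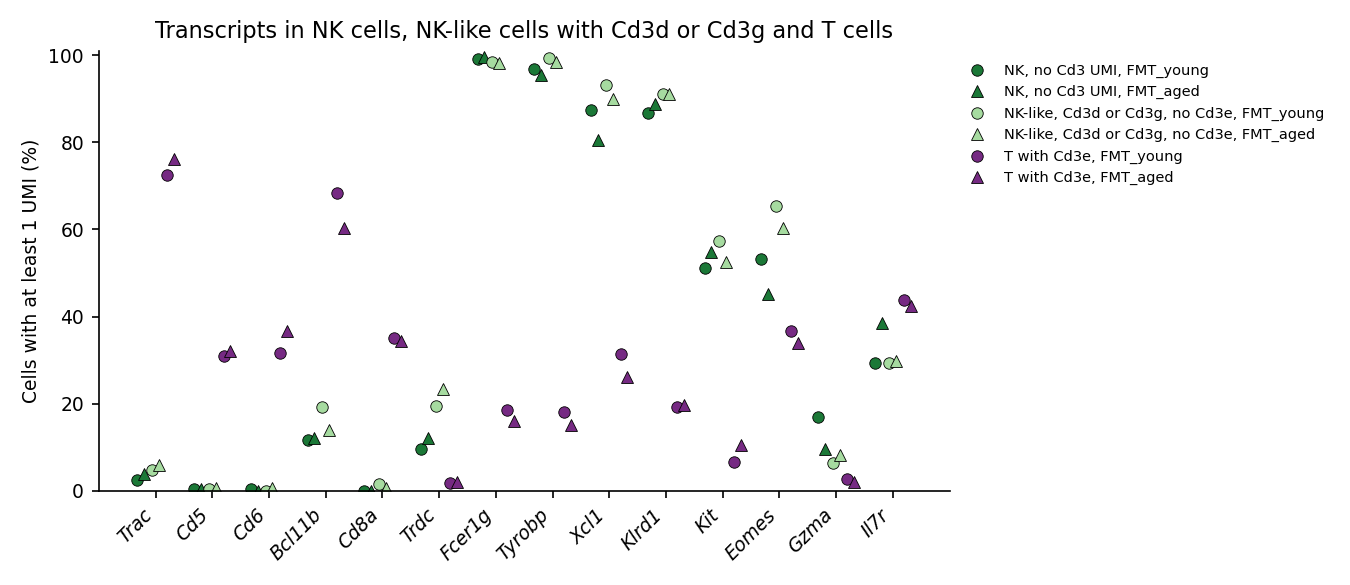
Share of cells with at least 1 UMI (y axis, percent) of 14 genes (x axis) in NK cells, NK-like cells with Cd3d or Cd3g and T cells with Cd3e, circles for FMT_young and triangles for FMT_aged. The NK-like cells lie next to the NK cells for Trac, Cd5, Fcer1g and Kit, while T cells stand apart, with Trac in 72.5% and 76.1%. Trdc stands at 19.5% and 23.3% in NK-like cells and at 9.68% and 12.2% in NK cells.

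NK cells made up 2.08% of called cells in FMT_young (95% exact binomial interval 1.83 to 2.35%) and 2.67% in FMT_aged (2.38 to 2.98%). With Cd3d and Cd3g allowed, a gate chosen after seeing the data, the shares were 6.47% (6.04 to 6.93%) and 8.84% (8.32 to 9.37%). FMT_young was lower by both gates. Intervals here and below cover counting error only, without the spread between animals, sorts or libraries, and PCR and droplet sampling add error that they do not hold.

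A Kit UMI was found in 127 of 248 FMT_young NK cells (51.2%, 44.8 to 57.6%) and in 166 of 303 FMT_aged NK cells (54.8%, 49.0 to 60.5%). Of these, 68 and 85 cells had at least 2 Kit UMIs, and the highest count was 16 in FMT_young and 8 in FMT_aged. At equal depth of 2000 UMIs the share was 27.8% (22.2 to 33.9%, 67 of 241 cells) in FMT_young and 36.7% (31.2 to 42.5%, 108 of 294 cells) in FMT_aged, and these intervals overlapped. The 7 and 9 cells under 2000 UMIs were left out.

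The share was then set beside that of cells that should lack Kit. CD8 T cells here are T cells with Cd8a or Cd8b1, mature B cells have Ms4a1 and Cd79a, and mature neutrophils Retnlg and Cxcr2. Thinned CD8 T cells had a Kit UMI in 2.34% (FMT_young, 0.486 to 6.70%) and 2.44% (FMT_aged, 0.668 to 6.13%), with median depths before thinning of 3193 and 2820 UMIs. Mature B cells had 3.21% and 3.03%, and mature neutrophils 6.80% and 6.04%. NK-like cells with Cd3d or Cd3g stood at 24.9% and 27.7%, and T cells with Cd3e at 1.84% and 5.65%. Cells with both Cd34 and Mpo, a progenitor class sorted in part by cKit, had 18.3% and 19.4% after thinning. Before thinning their share was 74.9% and 77.0%, at median depths of 22978.5 and 23421 UMIs. This was above the 51.2% and 54.8% of the shallower NK cells. An ILC2-like gate, with Il1rl1 and Gata3 and no Cd3, held 4 and 17 cells after thinning and stood at 25% (0.631 to 80.6%) and 17.6% (3.8 to 43.4%), too few to compare. Leaving out the ILC2-like gate, whose wide intervals overlapped, NK cells had a higher thinned share than each of the other classes in both libraries. Their intervals were apart from those of all these classes but the NK-like cells. The NK-like interval overlapped in FMT_young (21.2 to 28.9%) and ended at the NK cells' lower bound in FMT_aged (24.3 to 31.2%).

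Kit levels were then set beside those of a progenitor transcript of free RNA. Thinned NK cells had 189 Kit CPM in FMT_young and 257 Kit CPM in FMT_aged, against 53.7 and 59.1 CPM in T cells, 9.22 and 28.3 CPM in T cells with Cd3e, 11.7 and 12.2 CPM in CD8 T cells, and 77.5 and 80.9 CPM in free RNA. Mpo, a granule enzyme of neutrophil precursors, was found in like shares of thinned cells of each class: 41.1% and 33.0% of NK cells, 41.5% and 36.7% of T cells, and 44.5% and 35.4% of CD8 T cells. Among NK cells with no UMI of the 6 other-lineage genes listed above, 33 of 73 (45.2%) in FMT_young and 42 of 105 (40%) in FMT_aged had a Kit UMI, and after thinning 31.9% and 32.3%.

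**Figure D2:**
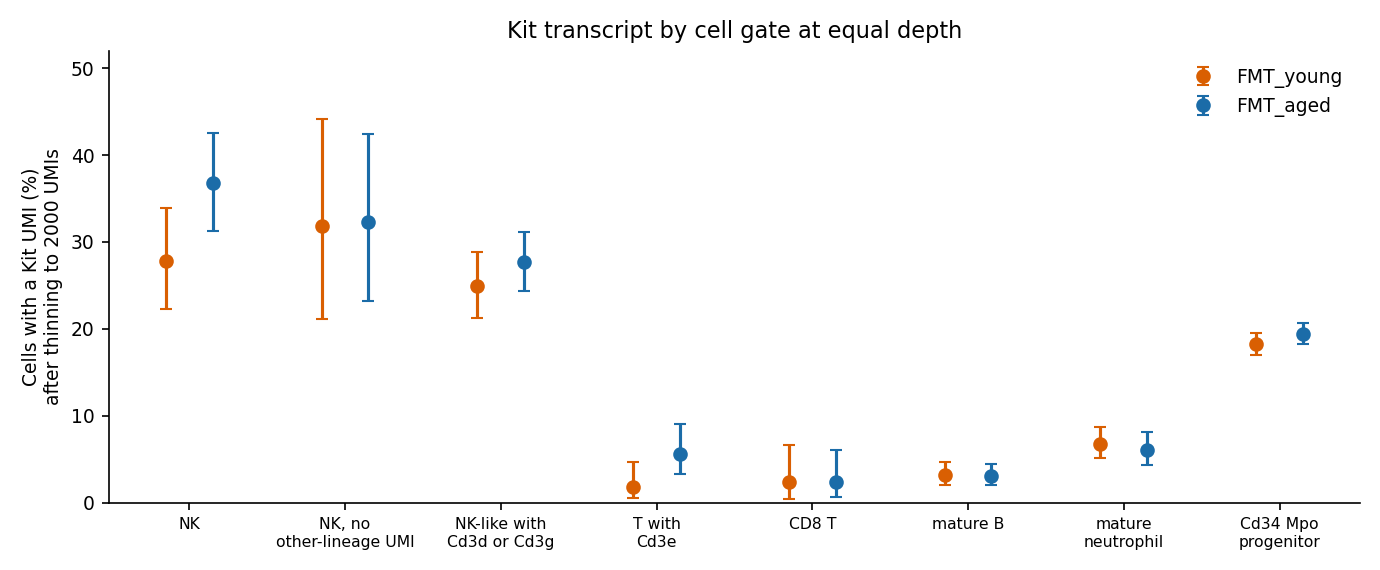
Share of cells with a Kit UMI (y axis, percent) after each cell was thinned to 2000 UMIs, by cell gate (x axis) in FMT_young and FMT_aged; bars are 95% exact binomial intervals for counting error. NK cells stand at 27.8% and 36.7% and CD8 T cells at 2.34% and 2.44%.

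Within thinned NK cells the Kit share was compared by 10 other genes. In FMT_aged, 48.1% (38.4 to 58.0%) of cells with Tcf7, a transcription factor of early NK development, had a Kit UMI, and 30.1% (23.6 to 37.2%) of cells without; in FMT_young the shares were 29.9% and 27.0%. For Eomes, a T-box factor of NK identity, the shares with and without were 34.2% and 24.7% in FMT_young and 46.1% and 32.7% in FMT_aged. For Gzma, which encodes granzyme A, they were 25% and 28.2% in FMT_young and 30% and 37.2% in FMT_aged. Klra8 stood at 32.2% and 25.2% in FMT_young and at 43.8% and 32.4% in FMT_aged. Tbx21, also a T-box factor, stood at 33.3% and 27.0%, and at 41.2% and 36.2%. Cd27 went opposite ways, with 22.4% and 29.2% in FMT_young and 44.0% and 34.2% in FMT_aged. Il7r and Xcl1 were higher with the gene in both libraries, Mki67 lower in both, and Itgam differed between them. Of the 20 comparisons, 10 genes in each library, the intervals of cells with and without the gene were apart in 1, Tcf7 in FMT_aged.

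Kit-positive cells were deeper than Kit-negative cells. Their median was 4342 UMIs in Kit-positive and 3625 UMIs in Kit-negative cells of FMT_young, and 4088 and 3273 UMIs in those classes of FMT_aged. Above 10000 UMIs there were 35 Kit-positive cells, with 77.4% of that class's UMIs, and 8 Kit-negative cells, with 26.3%, in FMT_young. In FMT_aged there were 31 Kit-positive cells, with 63.8%, and 5 Kit-negative cells, with 23.8%. Of the 43 FMT_young and 36 FMT_aged NK cells above 10000 UMIs, 29 and 27 had a top doublet score. The 6 granulocyte-monocyte progenitor markers summed, after thinning, to 5264 CPM in Kit-positive and 2174 CPM in Kit-negative cells of FMT_young, and to 4271 and 1836 CPM in those classes of FMT_aged. Each Kit comparison is given for all cells and for cells of at most 10000 UMIs, a limit chosen after seeing the data, since cells above it held most UMIs of the Kit-positive class in both libraries.

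**Figure D3:**
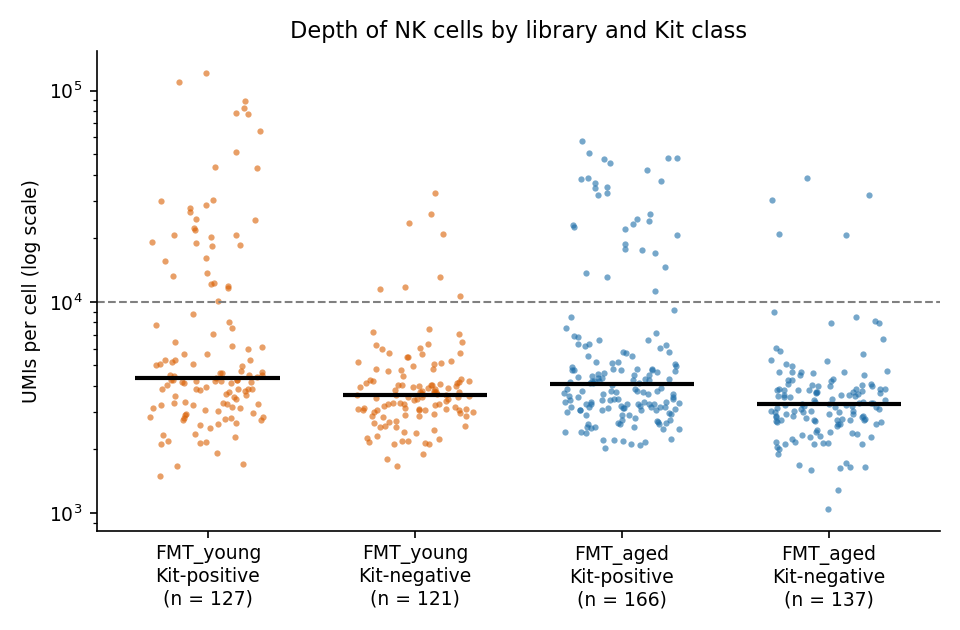
UMIs per NK cell (y axis, log scale) in Kit-positive and Kit-negative cells of FMT_young and FMT_aged (x axis); each point is 1 cell, the bar is the median and the dashed line marks 10000 UMIs. Cells above the line number 35 and 8 in FMT_young, and 31 and 5 in FMT_aged.

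Kit-positive and Kit-negative NK cells were compared on counts summed per library and class, 4 sums in all, with edgeR's quasi-likelihood test and the library as a block. The p-values rest on 2 pairs of sums from libraries of different groups. Over all NK cells, 530 of 8196 genes tested (6.47%) were higher and 534 (6.52%) lower in Kit-positive cells at an adjusted p under 0.05. The higher genes named by rule were Stfa1, Mcpt8 (a basophil protease), Trem3, the progenitor antigen Cd34, Ctsg (cathepsin G), Ms4a3, Prss57, Ifitm1, Ogfrl1, the granule enzyme Mpo, Alas1 and Dstn, with log2 fold changes of 1.81 to 4.64. Mpo had 4132 CPM in Kit-positive and 1261 CPM in Kit-negative cells of FMT_young, and 4627 and 1237 CPM in those classes of FMT_aged (log2 fold change 1.82 ± 0.14 SE, edgeR adjusted p = 2.26e-08). A single cell held 95.3% of the Stfa1 UMIs of FMT_young NK cells and 95.9% of those of FMT_aged, and for Mcpt8 68.3% and 52.9%. With every cell thinned to 2000 UMIs, 7 genes were higher and 0 lower by edgeR, with 276 at an unadjusted p under 0.05, and DESeq2 on all UMIs called 87 higher and 82 lower.

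The lower genes named by rule were Gzma, the collagen receptor chain Itga1, the granzyme B inhibitor Serpinb9, Klrb1b, Sulf2, Tk2, Maf, the activating receptor Cd226, Ifitm10, Gimap4, Cited4 and the interleukin-18 receptor Il18r1, with log2 fold changes of -2.19 to -1.48. NK genes were lower as well: Klrd1 stood at -1.03 ± 0.15 SE, Xcl1 at -1.01 ± 0.15, Fcer1g at -0.85 ± 0.14 and Ifng, the interferon gamma gene, at -1.35 ± 0.20 (edgeR adjusted p = 0.000159, 0.000167, 0.00038 and 0.000159). Kit-positive cells were also the class with most of its UMIs in cells above 10000 UMIs.

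Among cells of at most 10000 UMIs, 11 of 5328 genes (0.206%) were higher and 35 (0.657%) lower in Kit-positive cells by the same test, 0.863% in all. The higher genes named were Camk2n1, the NF-kappaB inhibitor Tnfaip3, the integrin chain Itga4, and the chemokine genes Ccl4 and Ccl5, with log2 fold changes of 0.17 to 0.69. Ccl4 had 1026 CPM in Kit-positive and 777.6 CPM in Kit-negative cells of FMT_young, and 810.2 and 618.6 CPM in those classes of FMT_aged (0.40 ± 0.09 SE, edgeR adjusted p = 0.00375). With each cell also thinned to 2000 UMIs, none of these 5 passed (edgeR adjusted p = 0.22 to 0.719).

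The lower genes named among these cells were Camp, Lcn2, S100a9, S100a8, Retnlg, Elane, Ckb, Fgl2, Tmem176a, Ly6c2, Plac8 and S100a6, with log2 fold changes of -2.79 to -0.94. With each of these cells also thinned, Camp, S100a9, S100a8, Ly6c2 and Elane passed again. Lcn2, Ckb, Fgl2, Tmem176a, Plac8 and S100a6 stayed below 0 without passing (edgeR adjusted p = 0.0553 to 0.595). Retnlg had no value after thinning. Elane, the neutrophil elastase gene, had 356.5 CPM in Kit-positive and 542.2 CPM in Kit-negative cells of FMT_young, and 249.3 and 695.1 CPM in those classes of FMT_aged (-1.05 ± 0.12 SE, edgeR adjusted p = 1.54e-14). Over all cells Elane was higher in Kit-positive cells (1.77 ± 0.14), so its direction turned with the limit on UMIs. The same held for S100a8 (1.25 over all cells), S100a9 (1.21), Ly6c2 (0.95) and Plac8 (1.52), each called higher over all cells by edgeR, and for Ctsg and Mpo. Camp (1.67) and Lcn2 (0.84) were above 0 over all cells without passing (edgeR adjusted p = 0.191 and 0.123). Ccl3, which encodes a chemokine of the same group as Ccl4, was lower (-0.67 ± 0.17 SE, edgeR adjusted p = 0.0124), with a counting interval that held 0 in FMT_young (-0.84 to 0.03).

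Gzma was lower in Kit-positive cells over all cells and at most 10000 UMIs. With all cells thinned it stood at -1.42 (edgeR adjusted p = 0.11), and without the library as a block its adjusted p was 0.0694, so neither passed. It had 76.1 CPM in Kit-positive and 450.1 CPM in Kit-negative cells of FMT_young, and 41.7 and 142 CPM in those classes of FMT_aged (-2.19 ± 0.20 SE, edgeR adjusted p = 3.48e-07). Among cells of at most 10000 UMIs the levels were 181 and 513.6 CPM in FMT_young and 115.2 and 157.4 CPM in FMT_aged, where the counting interval of the log2 ratio held 0 (-0.97 to 0.06; both libraries -1.06 ± 0.17 SE, edgeR adjusted p = 1.1e-07). It was detected in 22 of 127 Kit-positive and 20 of 121 Kit-negative cells of FMT_young, and in 13 of 166 and 16 of 137 cells of those classes of FMT_aged. The shares of cells were close and the counts were not, with up to 41 Gzma UMIs in 1 cell. Gzmb, which encodes granzyme B, was rare: 5 of 127 Kit-positive and 13 of 121 Kit-negative cells of FMT_young had it, and 3 of 166 and 15 of 137 cells of FMT_aged (-3.47 ± 0.46 SE, edgeR adjusted p = 5.22e-05; at most 10000 UMIs -2.61 ± 0.52, adjusted p = 0.000105).

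**Figure D4:**
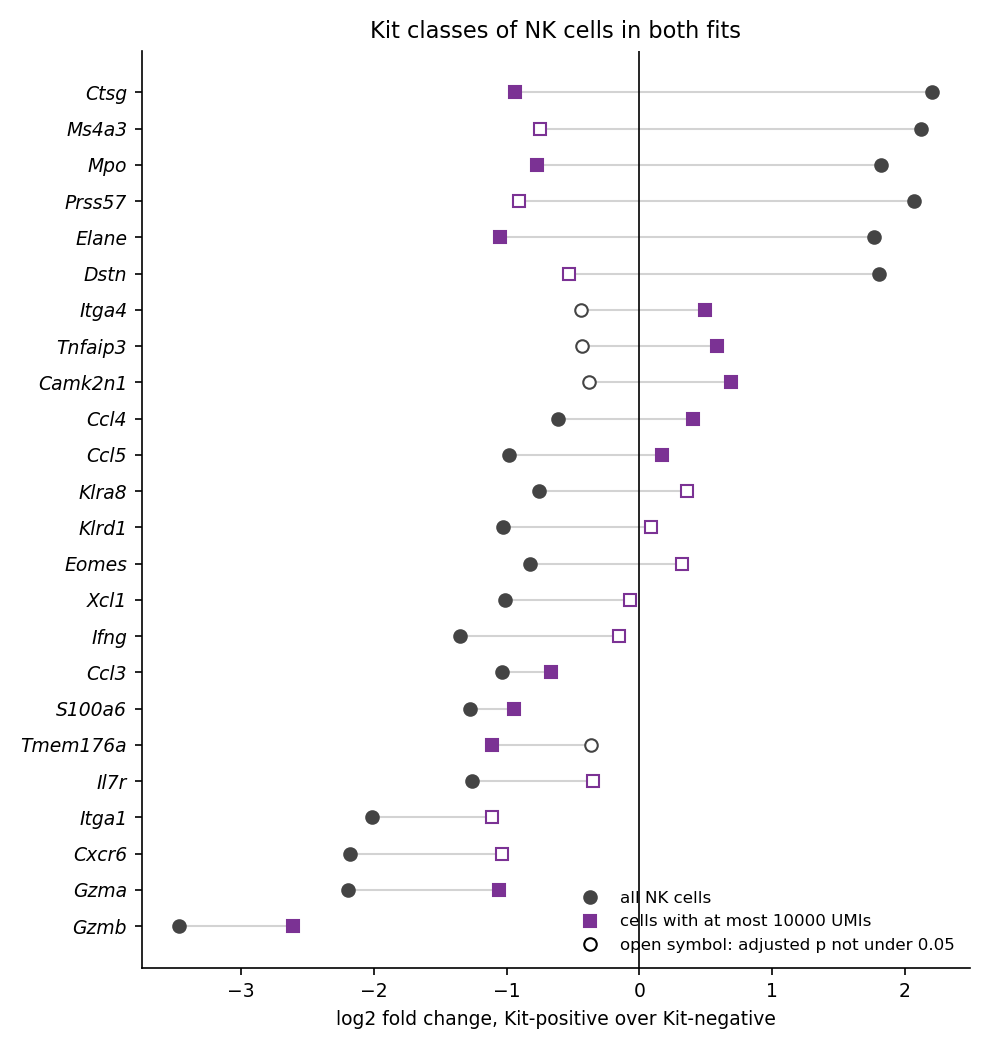
Log2 fold change of Kit-positive over Kit-negative NK cells (x axis) for 24 genes (y axis), dots for all NK cells and squares for cells of at most 10000 UMIs; open symbols did not reach an adjusted p under 0.05 by edgeR. Mpo stands at 1.82 in all cells and -0.77 in the limited cells, Klrd1 at -1.03 and 0.09, and Gzma and Gzmb stay below 0.

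Gene lists also differed with the limit on UMIs. Of all genes tested, 6.47% were higher and 6.52% lower over all cells, and 0.206% and 0.657% at most 10000 UMIs. Of 16 tested lectin-family NK receptors, 14 were lower and 0 higher in Kit-positive cells over all cells (median log2 fold change -0.85, against 0.00 for all genes). At most 10000 UMIs, 0 of the 16 passed edgeR's test in either direction (5 higher and 1 lower at an unadjusted p under 0.05) and the median was 0.28, with Klra8 at 0.36 (edgeR adjusted p = 0.0898). Of 31 NK transcription factors, 19 were lower over all cells and 0 of 30 passed in either direction at most 10000 UMIs (4 higher and 3 lower at an unadjusted p under 0.05); Eomes stood at -0.82 and 0.32. Of 22 S phase genes, 15 were higher over all cells and 0 of 12 passed at most 10000 UMIs (0 higher and 1 lower at an unadjusted p under 0.05).

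Of 12 tested genes associated with ILC1 and helper innate lymphoid cells, such as Itga1, Cxcr6, Il7r and Tmem176a, 9 were lower in Kit-positive cells over all cells (median -1.31), against 6.52% of all genes. At most 10000 UMIs, 2 passed, both lower, and 11 of 12 had a value below 0 (median -0.43). Cxcr6, a chemokine receptor of liver-type innate lymphoid cells, stood at -2.18 ± 0.39 SE over all cells (edgeR adjusted p = 0.000782) and at -1.04 at most 10000 UMIs (edgeR adjusted p = 0.208). In 13 tested mature NK genes at most 10000 UMIs, 1 was higher and 4 lower, against 0.206% and 0.657% of all genes.

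NK cells were next compared with T cells (504 cells in FMT_young, 724 in FMT_aged). The genes of the gates were not tested, and others that go with them describe the classes. In the same test, 391 of 10085 genes (3.88%) were higher and 490 (4.86%) lower in NK cells, 8.74% in all. Kit, which set the Kit classes, is given as a description. It had 132 CPM in NK and 71.2 CPM in T cells of FMT_young, and 166 and 70.7 CPM in those classes of FMT_aged (log2 fold change 1.14 ± 0.12 SE). It stood at 1.83 at most 10000 UMIs and at 2.01 after thinning. Against T cells with Cd3e, a class chosen after seeing the data, it stood at 1.91.

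The NK genes higher against T cells included the receptors Klrb1b (2.62 ± 0.17 SE), Klra4 (2.03 ± 0.10) and Klra1 (1.82 ± 0.16), and Gzma, with 173.7 CPM in NK and 25.4 CPM in T cells of FMT_young and 70.7 and 24.9 CPM in those classes of FMT_aged. Nrgn, a calmodulin-binding protein gene known from neurons, was also higher (1.81 ± 0.12 SE). Of 17 lectin-family receptors tested, 15 were higher and 1 lower (median 1.22, against 0.01 for all genes, of which 3.88% were higher and 4.86% lower). The T class holds some NK-like cells: against T cells with Cd3e, 16 were higher and 1 lower with a median of 3.14, and Klra1 stood at 4.04. Klra4 and Klrb1b had no UMI in those T cells. With 3 UMIs over both libraries assumed there as a floor, they stood 329-fold and 102-fold higher in NK cells. Those T cells were chosen without Ncr1 and Klrb1c UMIs, and NK cells by a UMI of either gene. The receptor values against them therefore partly describe the gates. Of 16 other receptors and adaptors, 7 were higher, among them the 2B4 receptor gene Cd244 (1.44), Cd7 (1.32), Fcer1g (1.07) and Tyrobp (0.99), and 5 were lower, among them the zeta chain gene Cd247 (-1.66). Mzb1, Jchain and Ly6d, genes of the B lineage and plasma cells, were higher too (2.95, 2.90 and 1.91), and Ly6d stood at -0.39 at most 10000 UMIs.

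Among the lower genes named by rule, Cd8a and Themis had no UMI in NK cells, and Cd8b1, Cd6, Gzmk, Cd5, Trac and Tnfrsf4 were lower, Trac at -5.66 ± 0.18 SE. The T cell transcription factor Bcl11b had 15.5 CPM in NK and 198 CPM in T cells of FMT_young, and 18.4 and 174.5 CPM in those classes of FMT_aged. Ikzf2, which encodes Helios, was lower at -2.20 ± 0.11 SE. In the type I interferon response list, 13 of 35 were lower in NK cells and 0 higher (median -0.38), against 4.86% and 3.88% of all genes. Among effector genes, Xcl1 was higher (1.19), and Ccl5 (-0.63), Gzmb (-1.20) and the interleukin-7 receptor Il7r (-0.87) lower in NK cells.

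NK cells were also compared with the NK-like cells with Cd3d or Cd3g. In this comparison, added after seeing the data, 37 of 10558 genes (0.35%) were higher and 31 (0.294%) lower in NK cells, 0.644% in all. Gzma was higher, with 173.7 CPM in NK and 14.0 CPM in NK-like cells of FMT_young, and 70.7 and 35.5 CPM in those classes of FMT_aged (2.23 ± 0.34 SE, edgeR adjusted p = 0.00264). The other higher genes named by rule were the histone genes Hist1h1b, Hist1h2ae and Hist1h2ac, the receptors Klrb1b (1.10 ± 0.12) and Il18r1 (0.89 ± 0.13), and the neutrophil granule genes Ltf and Ngp. Without the library as a block, 0 genes passed in either direction, with 321 at an unadjusted p under 0.05, and DESeq2 called 3 higher and 3 lower.

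Of 14 tested ILC1 and helper innate lymphoid genes, 7 were higher in NK than in NK-like cells and 0 lower (median 0.68, against 0.00 for all genes, of which 0.35% were higher). They included Cxcr6, at 15.1 CPM in NK and 3.02 CPM in NK-like cells of FMT_young and 28.6 and 6.12 CPM in those classes of FMT_aged (2.18 ± 0.25 SE), Itga1 (1.38 ± 0.21), Rora (1.03 ± 0.17), Il7r (0.81 ± 0.11) and Tmem176a (0.68 ± 0.11). Gzmb (2.07 ± 0.33) and Ikzf2 (1.35 ± 0.16) were also higher. At most 10000 UMIs, 10 of 13 tested genes of this list passed, all higher, against 66 higher and 94 lower of all 8446 genes. After thinning 9 of 13 passed, against 44 higher and 94 lower of all 7271 genes. The cytokine signal inhibitor Socs2 (-1.20 ± 0.16), the gamma chain constant gene Tcrg-C4 (-1.11 ± 0.15), Ctla2a, Kbtbd11 and Fam46c were lower, as were Slamf6 (-0.86 ± 0.16) and Thy1 (-0.44 ± 0.09). The class II genes H2-Eb1, H2-Ab1 and H2-Aa were lower over all cells (-0.80 to -0.74) and stood at 0.54 to 0.76 at most 10000 UMIs.

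FMT_young and FMT_aged NK cells were compared by the sum of each gene's UMIs in each library, with no test. Of 9590 genes with at least 20 UMIs in all, 183 (1.91%) were at least 2-fold higher in FMT_young and 306 (3.19%) at least 2-fold lower; after thinning these were 2.13% and 3.96% of 5955 genes. The median log2 ratio of all genes was -0.18, and with TMM scaling, which shifts every ratio by 0.19, it was 0.01. Ratios below are FMT_young over FMT_aged by total counts, with an exact 95% interval for counting error. Fewer cells of a kind and less RNA per cell cannot be told apart in such sums.

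Klf2, a transcription factor gene of lymphocyte trafficking and quiescence at chr8:72319033-72321656 on the plus strand of mm10, had a UMI in more FMT_young NK cells than the other 11 genes named as higher there. It had a UMI in 201 of 248 FMT_young NK cells (81.0%) and in 147 of 303 FMT_aged NK cells (48.5%). Its thinned level was 932 CPM in FMT_young and 231 CPM in FMT_aged, and the log2 ratio 1.87 (1.71 to 2.03) over all cells and 2.02 at most 10000 UMIs. In free RNA, Klf2 stood at 677 CPM and 226 CPM, so the difference was present outside the NK cells as well, and the part of free RNA in it was not tested. The stress-response gene Gadd45g was higher in FMT_young as well (41.9% of FMT_young and 13.2% of FMT_aged cells, log2 ratio 1.90, 1.48 to 2.34). So were the orphan nuclear receptor Nr4a1 (1.65, 1.11 to 2.23) and Egr1 (1.19, 1.00 to 1.39). At most 10000 UMIs, Gadd45g, Nr4a1 and Egr1 stood at 2.35, 1.60 and 0.72, and after thinning at 2.39, 1.67 and 0.70. Their free RNA was 84.6, 81.9 and 573.5 CPM in FMT_young and 27.0, 22.2 and 252.8 CPM in FMT_aged.

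Gzma and Id3 were higher in FMT_young. The free RNA level of Gzma was far below its thinned NK level in both libraries, while that of Id3 was nearer to it, above all in FMT_aged. The part of free RNA in these differences was not tested. Gzma had a UMI in 42 of 248 FMT_young NK cells (16.9%, 12.5 to 22.2%) and in 29 of 303 FMT_aged NK cells (9.57%, 6.50 to 13.5%), with 344 CPM and 112 CPM after thinning and 2.7 and 2.3 CPM in free RNA (log2 ratio 1.30, 1.02 to 1.58). With Cd3d and Cd3g allowed in the gate, the Gzma ratio was 0.35 (0.15 to 0.56), against 1.87 (1.78 to 1.96) for Klf2. Id3, an inhibitor of E-protein transcription factors, had a UMI in 27.8% of FMT_young NK cells (22.3 to 33.8%) and in 9.24% of FMT_aged NK cells (6.23 to 13.1%), with 108 CPM and 25.5 CPM after thinning and 20.5 and 13.5 CPM in free RNA (1.53, 0.99 to 2.10; 1.14 with Cd3d and Cd3g allowed). Ifng was detected in 41.5% and 26.4% of cells, with 249 CPM and 151 CPM after thinning and 10.4 and 8.8 CPM in free RNA (0.63, 0.32 to 0.93); with Cd3d and Cd3g allowed its ratio was 0.07 (-0.10 to 0.23).

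The remaining genes named as higher in FMT_young included genes of other lineages. Jchain and Mzb1, plasma cell genes, had log2 ratios of 4.26 and 1.46 over all cells and of 2.37 and 0.93 at most 10000 UMIs; Jchain stood at 3698 CPM in FMT_young and 193 CPM in FMT_aged, with 17.7% and 34.7% of its UMIs in 1 cell, and its free RNA at 3076 CPM and 2362 CPM. Fcnb (2.52; 1.20 at most 10000 UMIs, -0.36 to 2.92), Vcam1 (2.48), Hist1h2ap (1.36), Syne1 (1.42; 0.41 at most 10000 UMIs) and Wfdc21 (1.19) completed the list. Vcam1 had a UMI in 24 FMT_young and 7 FMT_aged NK cells. At most 10000 UMIs it had 4 UMIs in FMT_young and 1 in FMT_aged, with a ratio of 2.33 whose interval held 0 (-1.01 to 7.95).

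Among genes lower in FMT_young, the lymphocyte surface genes Thy1, Clec2d and Cd96 were spread over many cells. Clec2d, which encodes a ligand of the receptor KLRB1B, had a UMI in 39.1% of FMT_young and 57.1% of FMT_aged NK cells, with 93.4 CPM and 221 CPM after thinning and 43.9 and 76.8 CPM in free RNA (-0.92, -1.21 to -0.64). Thy1 had a UMI in 48.8% and 63.0% of cells, with 228 CPM and 364 CPM after thinning and 9.6 and 18.9 CPM in free RNA (-0.97, -1.20 to -0.74). Cd96, an inhibitory receptor gene, had a UMI in 21.8% and 35.3% of cells and stood at 2.7 and 4.8 CPM in free RNA (-1.03, -1.48 to -0.59). Lars2, a mitochondrial leucyl-tRNA synthetase gene, was at 122 CPM and 369 CPM after thinning and at 210 CPM and 473 CPM in free RNA (-1.26, -1.48 to -1.04). Ruvbl2, Fabp5, Cpne7, Padi2, Phactr3 and Ifi27 had ratios of -1.04 to -0.91. Without top doublet scores Ruvbl2 stood at -0.35 (-1.02 to 0.31) and Fabp5 at 0.52. The basophil protease genes Prss34 and Mcpt8 had ratios of -5.24 and -2.68, with 72.4% and 52.9% of their FMT_aged UMIs in 1 cell. At most 10000 UMIs they had 3 and 9 UMIs in FMT_young and 4 and 5 UMIs in FMT_aged, with ratios of -0.09 and 1.18 whose intervals held 0.

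**Figure D5:**
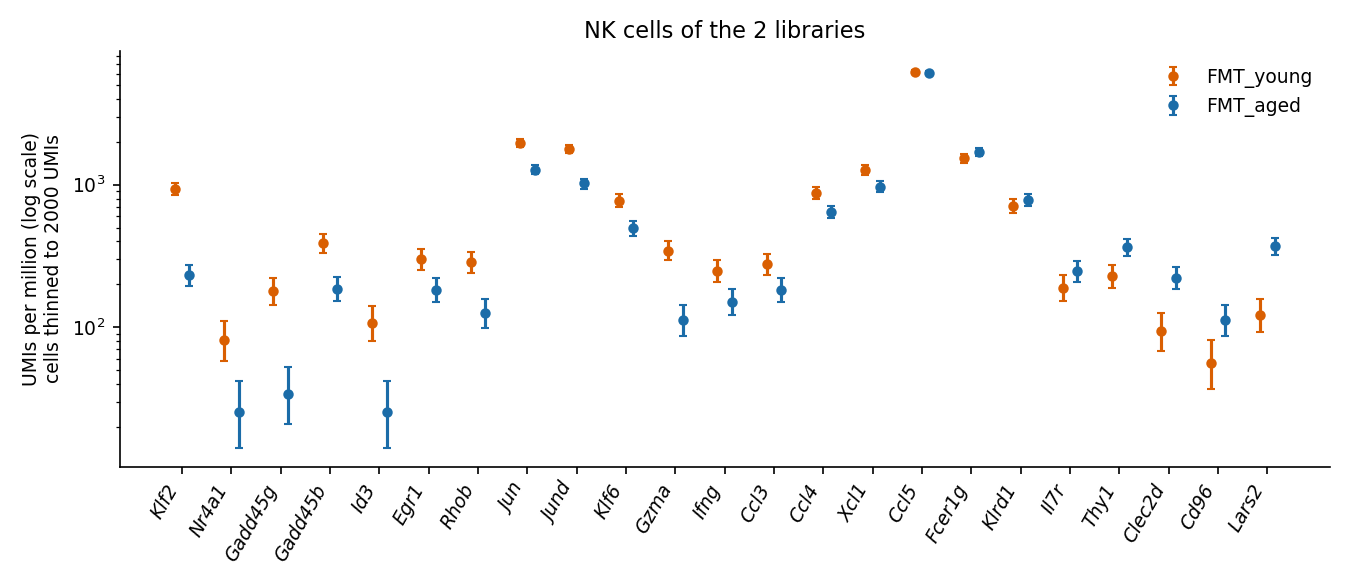
Level in CPM (y axis, log scale) of 23 genes (x axis) in FMT_young and FMT_aged NK cells, each cell thinned to 2000 UMIs; bars are 95% exact Poisson intervals for counting error. Klf2 stands at 932 and 231 CPM and Gzma at 344 and 112 CPM, Thy1 at 228 and 364 CPM, and Ccl5 at 6199 and 6102 CPM.

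Immediate early genes, which are induced within minutes of cell stimulation, had the highest median of the 18 lists: 32 of 37 were higher and 5 lower in FMT_young (median log2 ratio 0.43, against -0.18 for all genes, of which 28.8% were higher and 71.2% lower). After thinning 30 of 36 were higher (0.47), against 38.0% of all genes (median -0.13). Jun had 1975 CPM in FMT_young and 1272 CPM in FMT_aged after thinning, Jund 1791 and 1020 CPM, Klf6 772 and 493 CPM, Gadd45b 388 and 185 CPM, and Rhob 286 and 126 CPM. In free RNA 35 of the 37 were higher in FMT_young, with Jun at 1759 CPM in FMT_young and 1420 CPM in FMT_aged and Gadd45b at 275 CPM and 102 CPM. The share of all genes higher in free RNA is not given here. Of 14 heat shock genes, 9 were higher (median 0.03), with Dnajb1 at a log2 ratio of 0.65 (0.52 to 0.79). At most 10000 UMIs 13 of 13 were higher (0.18), against 37.9% of all genes (median -0.11).

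Lectin-family NK receptors were lower in FMT_young for 17 of 17 measured (median -0.30), against 71.2% of all genes, with Klra8 at -0.40 (-0.56 to -0.24) and Klrd1 at -0.25 (-0.39 to -0.11). At most 10000 UMIs, 12 of 17 were lower (median -0.06), against 62.1% of all genes, and within Kit-negative cells the median was 0.07. Of 26 interferon gamma response genes, 20 were lower (median -0.32), a share near the 71.2% of all genes, with H2-K1, a class I molecule gene, at 2909 CPM in FMT_young and 3429 CPM in FMT_aged after thinning (-0.31, -0.37 to -0.25) and its light chain gene B2m at 2902 and 3553 CPM (-0.25, -0.30 to -0.19). With TMM scaling the medians of these lists were -0.11 and -0.13. In free RNA, 15 of 19 lectin-family receptor genes and 23 of 28 interferon gamma response genes listed there were lower in FMT_young. Other lists leaned lower there too, such as S phase genes (20 of 22) and G2 and M phase genes (21 of 22). Immediate early, heat shock, cytotoxic granule, cytokine and mature NK genes leaned higher. The share of all genes lower in free RNA is not given here, so these counts have no background. The part of free RNA in the immediate early, lectin and interferon gamma values was not tested.

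Chemokine and effector genes of NK cells followed. Ccl5 had 6199 CPM in FMT_young and 6102 CPM in FMT_aged after thinning, Ccl4 876 and 645 CPM, Ccl3 276 and 182 CPM, and Xcl1 1261 and 971 CPM, while their log2 ratios over all cells were between -0.16 and 0.07. Of 17 cytotoxic granule and death ligand genes, 5 were higher and 12 lower over all cells (median -0.20), again near the 71.2% and -0.18 of all genes, with 1 gene past 2-fold higher, Gzma. After thinning 9 were higher and 8 lower (0.05), against 38.0% higher and a median of -0.13 for all genes. Prf1, the perforin gene, had 99.6 CPM and 102 CPM after thinning, and Gzmb 35.3 and 32.3 CPM. Of 22 cytokine receptor genes, 14 were lower (median -0.30), a smaller share than the 71.2% of all genes, with Il7r at 189 CPM in FMT_young and 247 CPM in FMT_aged after thinning (-0.71, -0.99 to -0.43) and Kit at 189 CPM and 257 CPM (-0.33, -0.56 to -0.10). The ratios in parentheses are from all UMIs, not from the thinned levels beside them.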

How the data were processed

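The deposited files are 10x matrices of UMI counts per gene and barcode, which the authors made with Cell Ranger against mm10, per the submitters' processing notes; the matrix headers name software version 3.1.0, and gene IDs, symbols and barcodes (unit other) come from the deposited features and barcodes files. Reads were not reprocessed. Counts were summed per library and class and tested with edgeR 4.0.16 (TMM, filterByExpr, quasi-likelihood test, library as block, Benjamini-Hochberg over all genes tested); DESeq2 1.42.0 was an alternative. The scripts were tested on simulated data. Thinning drew 2000 UMIs per cell without replacement. Doublets were scored with Scrublet's method in scanpy 1.11.5 and, in alternatives only, cells with the top scores were removed, at 0.8% for every 1000 called cells. Intervals are 95% exact (Clopper-Pearson, Poisson or conditional binomial). Gene positions are from the GENCODE annotation of mm10 and matched 494 of 494 IDs looked up.

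The members, gene lists and comparisons were chosen with earlier results of these data known. Named genes in the Kit comparison had an adjusted p under 0.05, at least 50 CPM in the higher class and intervals on the same side of 0 in both libraries: the 12 largest changes each way, or 8 in the other tested comparisons. Between libraries they were the 12 each way whose interval bound lay farthest from 0, among genes whose UMIs summed to 100 or more over the libraries and reached 50 CPM in the higher one. In gene lists, members were named by level and change. Predicted gene models, ribosomal, mitochondrial and immunoglobulin genes were counted but not named. Genes outside this rule were named for their role after their values were seen.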

Additional observations from a re-analysis of the deposited data

Results flagged for a closer look

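For 5 genes the Kit-positive over Kit-negative log2 ratio had opposite signs in the libraries, with counting intervals on opposite sides of 0; the difference between the libraries was not tested. For Camp, an antimicrobial granule gene of neutrophils, the ratio was -0.96 in FMT_young and 5.01 in FMT_aged, and 61.5% of the FMT_aged NK cells' Camp UMIs lay in 1 cell. Lcn2, also a neutrophil granule gene, had -0.42 in FMT_young and 2.38 in FMT_aged. Retnlg, expressed by mature neutrophils, had 0.72 in FMT_young and -2.76 in FMT_aged. The plasma cell gene Jchain had 1.33 in FMT_young and -3.28 in FMT_aged. Mzb1 had 0.98 in FMT_young and -6.78 in FMT_aged, where 1 cell held 74.8% of its UMIs.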

How the results depend on the processing

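Each library is the only one of its group and p-values rest on 4 sums. NK cells were few and shallow, so genes with a few UMIs could not be separated from counting error. No paired analysis was possible because the FMT_young and FMT_aged libraries are 1 per group; in the tests between classes the library served as the block. With no replicate block, Kit-positive cells had 104 genes higher and 82 lower, NK against T cells 52 and 103, and NK against NK-like cells 0 and 0 (321 at an unadjusted p under 0.05; DESeq2 3 and 3).

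Kit-positive against Kit-negative counts of genes higher and lower were 200 and 79 without top doublet scores, 7 and 0 thinned, 953 and 1044 for at least 2 Kit UMIs, 91 and 44 with the stricter gate, 1371 and 1371 with Cd3d and Cd3g allowed, 11 and 35 at most 10000 UMIs, 1 and 11 when these were thinned, and 87 and 82 with DESeq2. Without cells with other-lineage UMIs they were 0 and 1 by edgeR (90 at an unadjusted p under 0.05), and the wider gate gave 975 lower. NK against T cells, DESeq2 gave 50 and 70, thinning 249 and 256, and the limit of 10000 UMIs 324 lower. NK against NK-like cells, the limit gave 66 and 94 and thinning 94 lower. Genes past 2-fold higher in FMT_young numbered 86 without other-lineage UMIs, 339 with Cd3d and Cd3g allowed, 291 with TMM and 343 by the mean over cells; lower ones 171 with TMM and 502 by the mean over cells.

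NK shares in FMT_young and FMT_aged were 1.21% and 1.74% with the stricter gate, 3.19% and 4.17% with the wider, 6.47% and 8.84% with Cd3d and Cd3g allowed, and 3.88% and 5.36% at most 10000 UMIs. Kit shares were 27.8% and 36.7% thinned, and 40% in FMT_aged without other-lineage UMIs.

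Directions that turned included the following, and the cause was not tested. Kit-positive against Kit-negative at most 10000 UMIs, the log2 fold change was -0.94 for Ctsg, -0.75 for Ms4a3, -0.91 for Prss57, -0.77 for Mpo, -0.53 for Dstn, -1.05 for Elane, -2.79 for Camp, -1.66 for S100a9, -2.50 for Lcn2, -1.56 for S100a8, -1.09 for Ly6c2, -1.01 for Plac8, 0.091 for Klrd1, 0.36 for Klra8, 0.40 for Ccl4, 0.17 for Ccl5, 0.32 for Eomes, 0.69 for Camk2n1, 0.59 for Tnfaip3 and 0.49 for Itga4. Thinned as well, it was -0.63 for Ctsg, -0.24 for Mpo, -0.87 for Elane, -2.46 for Camp, -1.42 for S100a9, -1.01 for S100a8, -1.19 for Ly6c2, -0.56 for Plac8, 0.080 for Klrd1, 0.49 for Klra8, 0.25 for Ccl4, 0.12 for Ccl5 and 0.46 for Eomes. Thinned over all cells it was 0.11 for Klra8, 0.054 for Ccl4 and 0.10 for Eomes. Without other-lineage UMIs it was 0.016 for Klrd1, 0.46 for Klra8, 0.51 for Ccl4, 0.020 for Ccl5, 0.33 for Eomes, -0.42 for Ly6c2, -0.28 for Plac8 and 0.019 for S100a6. With at most 5% mitochondrial UMIs Retnlg was 0.69. NK against T cells, Ly6d stood at -0.39 at most 10000 UMIs. NK against NK-like cells, H2-Eb1, H2-Ab1 and H2-Aa stood at 0.69, 0.54 and 0.76 at most 10000 UMIs, and H2-Eb1 and H2-Aa at 0.22 and 0.18 thinned. FMT_young over FMT_aged, Mzb1 was -0.083 and Fabp5 0.52 without top doublet scores, Mzb1 -1.07 and the lectin receptor median 0.065 within Kit-negative cells, Prss34 0.040 with the wider gate, and Mcpt8 1.18 at most 10000 UMIs and 0.39 within Kit-negative cells.

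The limit of 10000 UMIs and the gate with Cd3d and Cd3g were chosen after seeing the data. Over single genes and lists, 1467 values were labelled the same as in the main setting, 190 weaker, 25 stronger, 249 moved and 56 reversed. The ratios between the libraries were not tested, so for them these labels hold no threshold of adjusted p. The 56 need not hold every change of sign, and moved values may include some. For example, the FMT_young over FMT_aged log2 ratio of Fabp5 was -1.01 over all NK cells and 0.18 at most 10000 UMIs, a change not listed above.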
